A study of Homo sapiens with 3 samples.

Results

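The regions described here are 412 isolated peaks of the vitamin D receptor (VDR) that were found in THP-1 cells both before and after calcitriol. They were selected on the deposited peak positions alone. A calcitriol peak was taken when at least 1 bp of it lay in an unstimulated peak, and when neither it nor any peak it overlapped had a neighbour exactly 10 bp away in its own list. Peaks with such a neighbour belong to strings of adjoining peaks and were left out. The 412 sites make up 22.6% of the 1820 calcitriol peaks (exact 95% interval 20.7 to 24.6%), and they overlap 414 of the 1169 unstimulated peaks (35.4%, interval 32.7 to 38.2%).

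THP-1 is an established human line of monocytic leukaemia cells. In the unstimulated state the cells had spent a night in medium free of phenol red with charcoal-stripped serum, and in the calcitriol state the same medium was followed by 10 nM calcitriol, the active form of vitamin D3, for 40 min. VDR-bound DNA was measured by chromatin immunoprecipitation and sequencing (ChIP-seq), with 1 library per state and 5 immunoprecipitations pooled in it. The remaining sample, precipitated with non-specific IgG from pooled material, was not analysed here. Because peaks of 1 library are not replicates, no test of the states was made, and every interval covers counting over peaks only. The lists give a start and an end for each peak, on hg19, with no height, score or read count. Width is therefore the one measure of a site that the lists allow, and the depth behind it is unknown.

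VDR belongs to the nuclear receptors, and it contacts DNA as a dimer with a retinoid X receptor, typically at 2 hexamers related to AGGTCA in direct repeat. Without ligand the receptor can sit on DNA with corepressor proteins, and binding of calcitriol changes its shape so that coactivators take their place. In monocytes the receptor is known for its part in differentiation and in antimicrobial defence. A peak in both lists does not measure how much receptor was bound in either state, so whether binding at these sites is independent of ligand could not be checked, and they are called single sites of both states below. The marker genes of THP-1 cells were not measured by this assay.

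Overlap with the unstimulated list was less common among isolated peaks than in the list as a whole. Of all calcitriol peaks 39.4% overlapped an unstimulated peak, and of the 1443 that belonged to no string 31.8% did (459 peaks, interval 29.4 to 34.3%). Among the 377 calcitriol peaks in strings the share was 68.4% (258 peaks, interval 63.5 to 73.1%). The overlapping peaks thus divide into the 412 single sites, 258 pieces of calcitriol strings, and 47 isolated calcitriol peaks that lie over an unstimulated string. The rule by which the sites were chosen defines these classes, but it does not set how often each overlaps the other list. A piece of a string lies in a longer stretch, and whether this bears on the difference in shares was not tested.

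Among the single sites the correspondence was nearly always peak to peak, but the rule had already left out strings, where 1 peak can meet several. In the lists as a whole, 717 calcitriol peaks overlapped an unstimulated peak, and 447 pairs were peak to peak. For 407 of the 412 sites, 1 calcitriol peak met 1 unstimulated peak and no other, and the widths and positions below are those of the 407 pairs. The other 5 touched more than 1 peak or shared one, mostly with a second contact at the edge. On chromosome 16 a calcitriol peak of 2540 bp (88870771 to 88873311) shared 1550 bp with an unstimulated peak of 1830 bp and 190 bp with one of 1430 bp. On chromosome 17 one of 1390 bp (79800611 to 79802001) held a peak of 700 bp and shared 40 bp with one of 990 bp. On chromosome 19 a calcitriol peak of 2139 bp (50002701 to 50004840) shared 1669 bp with a peak of 1879 bp and 40 bp with one of 1350 bp. The reverse was seen once, on chromosome 7, where an unstimulated peak of 1900 bp (44106061 to 44107961) shared 160 bp with a calcitriol peak of 850 bp and held another of 660 bp, the latter 960 bp from the former.

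At most sites the peak was wider after calcitriol. In unstimulated cells the median width over the 407 pairs was 1480 bp (quartiles 1170 and 1840 bp, range 590 to 2999 bp). After calcitriol it was 1630 bp (quartiles 1360 and 1994.5 bp, range 140 to 3430 bp). The median change within a pair was 180 bp (exact interval of the median 99 to 260 bp). The calcitriol peak was wider in 255 pairs (62.7%, interval 57.8 to 67.4%), narrower in 151 and equal in 1. In the 109 pairs with centres within 100 bp the median change was smaller, at 80 bp, with an interval from -10 to 230 bp that includes 0, and the calcitriol peak was wider in 58.7% (interval 48.9 to 68.1%). In 447 pairs of the 2 lists 1 peak met 1 peak, strings included, and the calcitriol peak was wider in 62%. The 407 pairs of single sites are most of the 447, so these shares are not independent. In the 40 other pairs, which involved a string, the calcitriol peak was wider in 22 (55.0%, interval 38.5 to 70.7%). Overlaps that were not peak to peak are not among the 447. The whole lists differed in the same direction, with median widths of 1430 bp for calcitriol peaks and 1340 bp for unstimulated peaks. The whole lists include the single sites. Isolated peaks found in 1 state alone had medians of 1379 bp with calcitriol (exact interval 1330 to 1409 bp) and 1315 bp without it (1260 to 1379 bp). Without the unstimulated rows that break the order of positions, described at the end, the latter was 1359 bp. The interval of the 40 other pairs is wide. Whether a wider calcitriol peak was particular to the single sites is thus not known. Within the 407 pairs, changes went far in both directions. In 115 pairs the calcitriol peak was more than 500 bp wider and in 46 more than 500 bp narrower, and in 64 the widths were within 100 bp of each other.

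The width of a site in one state said little about its width in the other. Spearman's rho between the widths of the 407 pairs was 0.13 (Pearson's r = 0.12), given as a description over sites that share the same 2 libraries. When the pairs were ordered by unstimulated width, the 103 narrowest had a median of 990 bp before calcitriol and 1580 bp after it. The next 103 had medians of 1339 and 1600 bp. In the following 100 pairs the medians were 1644.5 and 1715 bp. The 101 widest had a median of 2019 bp before and 1690 bp after calcitriol. Across a range of unstimulated medians from 990 to 2019 bp, the calcitriol medians thus stayed between 1580 and 1715 bp. The calcitriol peak was wider in 97 of the 103 narrowest pairs (94.2%) and in 29 of the 101 widest (28.7%). Of the 101 widest in unstimulated cells, 34 were also among the widest after calcitriol and 17 were among the narrowest. The change is computed from the same unstimulated width that orders the pairs, so change and order are not independent.

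**Figure D1:**
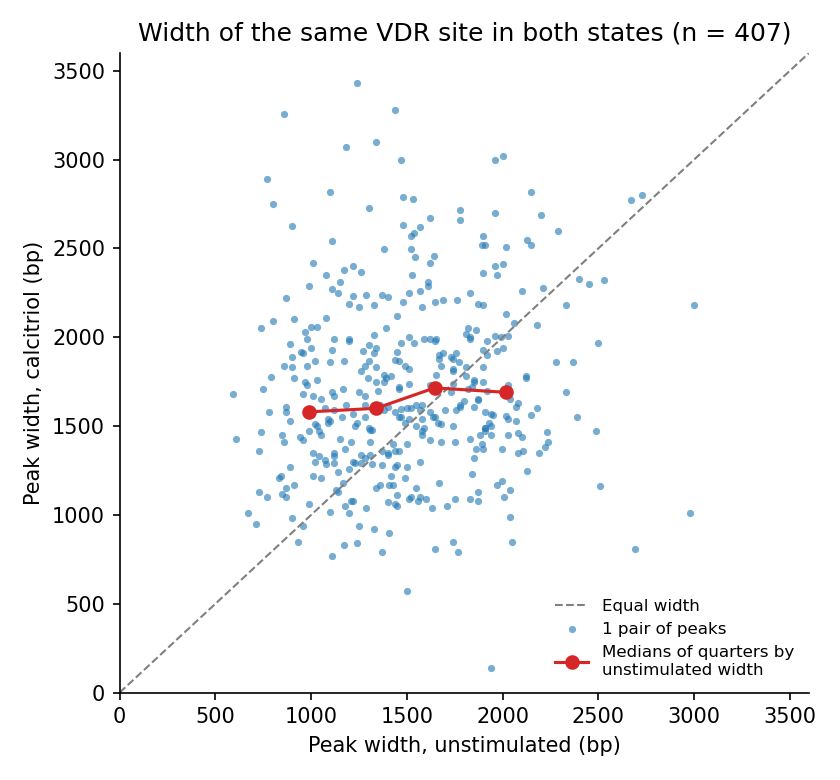
Each point is 1 of the 407 pairs, with the peak width in unstimulated cells on the x axis and after calcitriol on the y axis, both in bp; the dashed line marks equal width and the red points the medians of the 4 groups by unstimulated width. The cloud has little slope, and the red medians run from 1580 to 1715 bp on the y axis while they run from 990 to 2019 bp on the x axis.

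At the 8 sites with the widest calcitriol peaks, unstimulated peaks of 860 to 2000 bp lay inside broader ones. A wide calcitriol peak holds its partner more readily, and these sites were picked by that width. The widest lay on chromosome 1 (116517991 to 116521421) and measured 1240 bp before and 3430 bp after calcitriol. A second on chromosome 1 (221053831 to 221057111) measured 1440 and 3280 bp. On chromosome 11 (65543281 to 65546540) the widths were 860 and 3259 bp, and this gain of 2399 bp was the largest among the pairs. In all 8 of the sites with the widest calcitriol peaks the whole unstimulated peak lay within the calcitriol peak. The other 5 were on chromosome 8 (102700641 to 102703741, 1340 and 3100 bp), chromosome 3 (50273771 to 50276840, 1180 and 3069 bp), chromosome 5 (43312591 to 43315610, 2000 and 3019 bp), chromosome 1 (42626291 to 42629291, 1470 and 3000 bp) and chromosome 3 (18465191 to 18468191, 1960 and 3000 bp). Among the 8 largest gains were also sites on chromosome 15 (75334271 to 75337160, 770 and 2889 bp), chromosome 22 (29875971 to 29878720, 800 and 2749 bp) and chromosome 9 (37464371 to 37467000, 900 and 2629 bp).

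Losses of width were fewer than gains and reached 1970 bp. On chromosome 19 a site of 2980 bp in unstimulated cells was 1010 bp wide after calcitriol (51297741 to 51298751), with centres 55 bp apart. On chromosome 2 the widths were 2690 and 810 bp (200326391 to 200327201), with centres 960 bp apart. On chromosome 4 they were 1939 and 140 bp (1714931 to 1715071), the latter being the narrowest calcitriol peak among the single sites. Sites on chromosome 16 (2301431 to 2302591, 2509 and 1160 bp) and chromosome 1 (228276091 to 228276941, 2050 and 850 bp) came next. Decreases of 979 to 1049 bp were found on chromosome X (38663371 to 38664361, 2039 and 990 bp), chromosome 1 (45804901 to 45806371, 2490 and 1470 bp) and chromosome 2 (127414481 to 127415271, 1769 and 790 bp).

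How the peaks of a pair lay over each other was described by their edges. The calcitriol peak held the whole unstimulated peak in 142 pairs (34.9%), and the unstimulated peak held the whole calcitriol peak in 64 (15.7%). In the remaining pairs both edges had moved the same way, to lower positions in 106 and to higher positions in 95. The start of the calcitriol peak lay farther out in 248 pairs (60.9%) and its end in 236 (58.0%), with a median extension of 80 bp at either edge. Identical edges were rare, with 3 equal starts and 4 equal ends, although all starts lie on a grid of 10 bp. The shared stretch had a median length of 1210 bp (quartiles 990 and 1464.5 bp), which was a median of 75.6% of the calcitriol peak and 91.4% of the unstimulated peak. In all, the pairs covered 810.6 kb, of which 501.3 kb (61.8%) lay in both peaks, 197.0 kb in the calcitriol peak alone and 112.4 kb in the unstimulated peak alone.

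**Figure D2:**
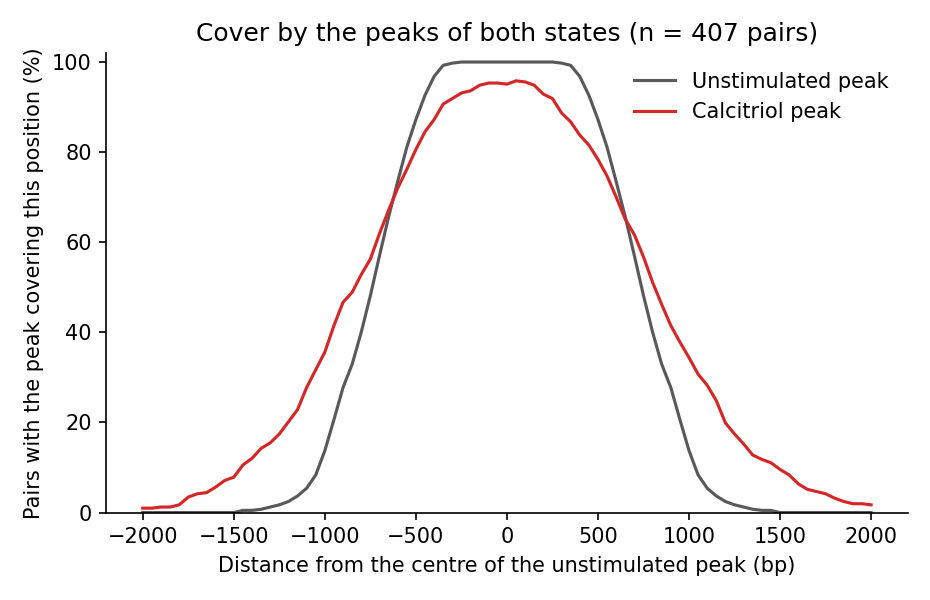
The x axis gives the distance in bp from the centre of the unstimulated peak, and the y axis the percentage of the 407 pairs in which the unstimulated peak (grey) or the calcitriol peak (red) covers that position. The grey curve is at its highest at the centre by construction. The red curve is lower there, at 95.3% at 50 bp before the centre, and broader, with 17.4% against 1.72% at 1250 bp before it. Because the pairs are aligned on the unstimulated centre, shifts of the calcitriol centre also lower and spread the red curve. The difference between the curves is therefore not a measure of width alone.

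The centres of the paired peaks seldom coincided, and they lay about equally often to either side. The median distance between the centres of a pair was 224.5 bp (exact interval 190 to 254.5 bp, quartiles 95 and 385 bp). For scale, the protocol gives the length of the sonicated DNA fragments as 200 to 400 bp. Centres lay within 100 bp in 109 pairs (26.8%, interval 22.5 to 31.4%) and within 400 bp in 313 (76.9%). Of all 447 pairs of the lists, 118 (26.4%) had centres within 100 bp. The 109 pairs of single sites are most of these 118, so the shares are not independent. In the 40 other pairs, which involved a string, the median distance was 437.3 bp (exact interval 300 to 585 bp). Among the pairs of single sites, the calcitriol centre was at the higher position in 205 and at the lower in 201. Both centres fell inside the shared stretch in 372 pairs (91.4%), and in 10 pairs neither did. Distance between centres was only weakly related to the width of the calcitriol peak (Spearman's rho 0.13, Pearson's r 0.09, a description over the same pairs). In the 109 pairs with centres within 100 bp, the median widths were 1469 bp before and 1599 bp after calcitriol. In the 94 pairs with centres over 400 bp apart they were 1644.5 and 1834.5 bp.

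**Figure D3:**
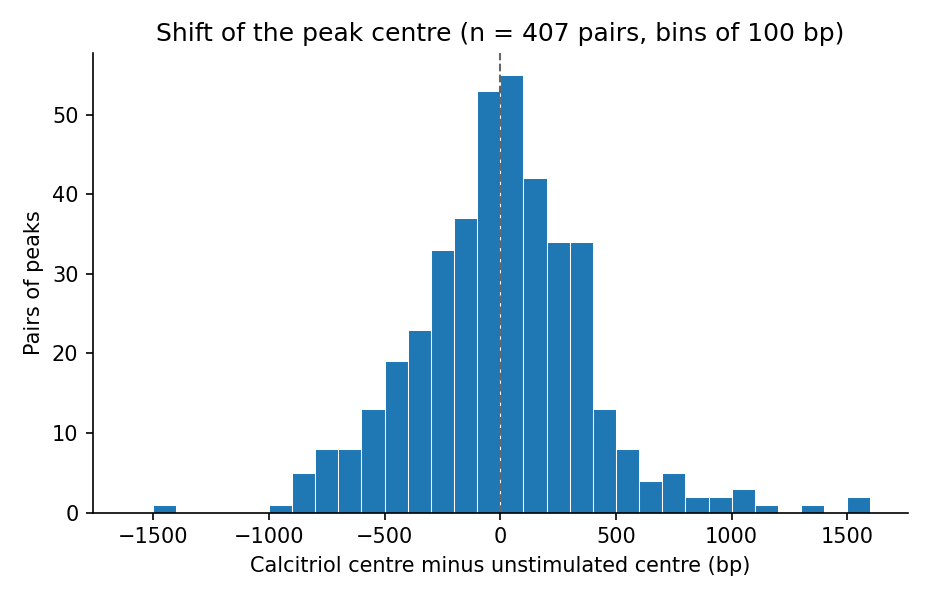
The histogram counts the 407 pairs (y axis) by the position of the calcitriol centre minus that of the unstimulated centre (x axis, bp, bins of 100 bp). It is centred near 0, with 205 pairs to the right and 201 to the left, and 399 pairs lie within 1000 bp.

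A few sites coincided almost to the grid. On chromosome 12 the centres were identical (26450961 to 26452651), although the widths were 1110 bp before and 1690 bp after calcitriol. On chromosome 11 (117467361 to 117468541) the peaks measured 1169 and 1180 bp with centres 4.5 bp apart. On chromosome 16 (29815311 to 29817320) they measured 1959 and 2009 bp with centres 5 bp apart. A site on chromosome 2 (200323001 to 200324811) measured 1740 and 1810 bp. The other 4 of the 8 closest lay on chromosome 1 (154946621 to 154947721, 1519 and 1100 bp), chromosome 19 (45393401 to 45394850, 1880 and 1449 bp), chromosome 9 (95877591 to 95879510, 949 and 1919 bp) and chromosome 14 (88511871 to 88513351, 1310 and 1480 bp). A close centre thus went with nearly equal widths at some sites and with large changes of width at others.

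The rule asks for 1 bp, and the shortest contacts were the 40 bp on chromosomes 17 and 19 given above, at sites that also shared a longer stretch with another peak. Among the 407 pairs the shortest shared stretches were 129 bp on chromosome 2 (127556631 to 127557671) and 130 bp on chromosome 17 (79370931 to 79372011). The next were 140 bp on chromosome 4, where the narrow calcitriol peak lies wholly inside its partner, and 150 bp on chromosome 7 (73631301 to 73633171). Just outside the rule, isolated calcitriol peaks on chromosome 18 (74202221 to 74203481) and chromosome 19 (5693641 to 5694401) ended or began 50 bp from an unstimulated peak. Peaks on chromosome 16 (1822711 to 1823521) and chromosome 19 (16232111 to 16234011) were 100 bp away. Of the 984 isolated calcitriol-only peaks, 16 lay within 500 bp of an unstimulated peak and 25 within 1000 bp. The gap of 10 bp that defines a string was not far from the next larger gaps, which began at 31 bp among unstimulated peaks and at 20 bp among calcitriol peaks. The single sites were not among those: their smallest gap to a neighbour in the calcitriol list was 200 bp, and 5 sites had a neighbour within 500 bp.

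Single sites of both states were wider than the isolated peaks of either state alone. In the calcitriol list their median width was 1625 bp (exact interval 1590 to 1710 bp), against 1379 bp (1330 to 1409 bp) for the 984 isolated calcitriol-only peaks. In the unstimulated list their 414 partners had a median of 1475 bp (1430 to 1529 bp), against 1315 bp (1260 to 1379 bp) for the 368 isolated unstimulated-only peaks. Of the single sites, 69.4% were wider than the median of the calcitriol list (interval 64.7 to 73.8%), and of the isolated calcitriol-only peaks 44.1% were (interval 41.0 to 47.3%). The 258 shared pieces of strings had a median of 1300 bp, and the 47 isolated peaks over an unstimulated string one of 1790 bp. A wide peak meets a peak of the other list more readily, so width is tied to the rule, and these values are a description with no test.

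**Figure D4:**
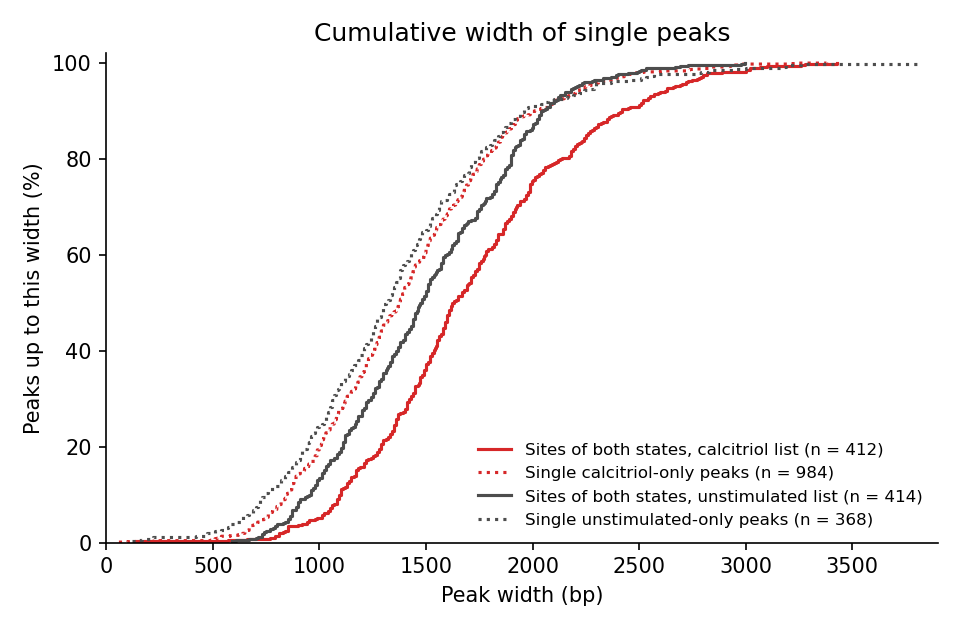
The curves give the percentage of peaks (y axis) up to each width in bp (x axis), in red for the calcitriol list and in grey for the unstimulated list. In both lists the solid curve of the sites of both states lies to the right of the dotted curve of isolated peaks found in that state alone through the middle of the range, with medians of 1625 against 1379 bp and of 1475 against 1315 bp.

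All 23 chromosomes with peaks, 1 to 22 and X, carried single sites of both states. Chromosome 1 had the most with 44, followed by chromosome 19 with 38, chromosome 6 with 30, chromosome 16 with 27, and chromosomes 8 and 9 with 25 each. The fewest were on chromosome 18 with 3 and on chromosomes 20, 21 and X with 4 each. As a share of the calcitriol list, the sites ranged from 11.1% on chromosome 20 (4 of 36 peaks, interval 3.11 to 26.1%) to 37.3% on chromosome 9 (25 of 67, interval 25.8 to 49.99%). Chromosome 9 was the one chromosome of 23 whose interval did not include the 22.6% of the whole list, and with 23 intervals this is not a test. Chromosome 19, with 165 calcitriol peaks, had a share of 23.0% (interval 16.8 to 30.2%), next to that of the list.

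**Figure D5:**
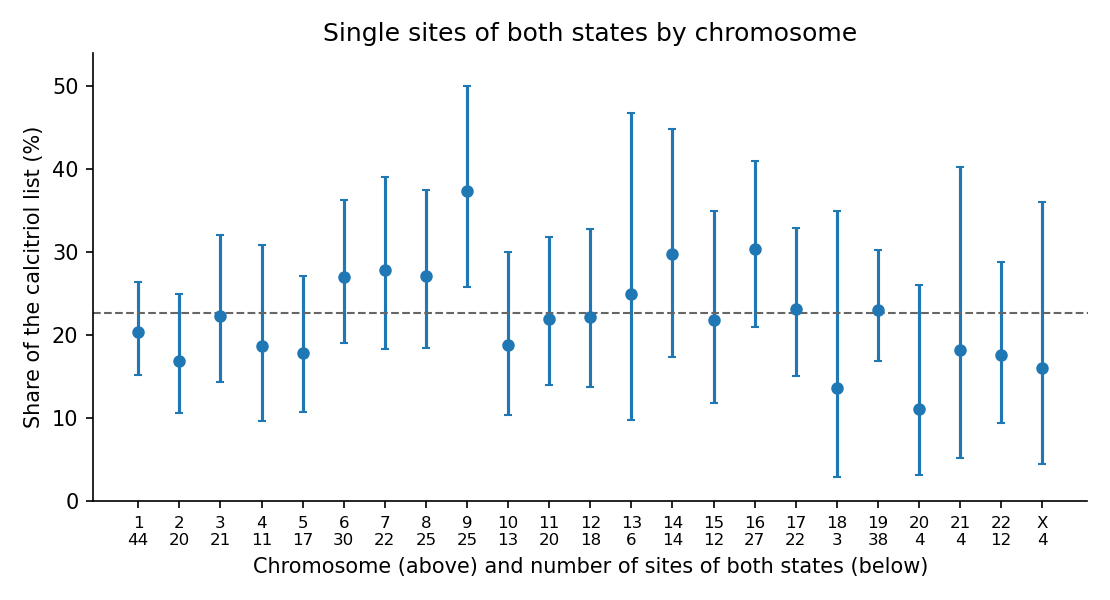
For each chromosome (x axis, with its number of sites below the name) the point gives the single sites of both states as a percentage of its calcitriol peaks (y axis) with the exact 95% interval, and the dashed line the 22.6% of the whole list. The intervals overlap the line on all chromosomes but chromosome 9, and they are wide on chromosomes with 3 or 4 sites.

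Set against gene content, the single sites were most frequent on chromosomes 8, 9 and 16, with 3.50, 3.21 and 3.16 sites per 100 protein-coding genes. The lowest values were 0.472 on chromosome X and 0.745 on chromosome 20, and chromosome 19 had 2.62. Chromosomes 8, 9 and 16 held 6.07, 6.07 and 6.55% of the single sites, and 5.05, 3.68 and 4.89% of all calcitriol peaks. Chromosomes X and 20 held 0.971% each of the sites, and 1.37 and 1.98% of all calcitriol peaks. No value per gene and no correlation was computed for all calcitriol peaks. Chromosomes 8, 9 and 16 had 92, 67 and 89 calcitriol peaks and 715, 778 and 854 genes. Chromosomes X and 20 had 25 and 36 calcitriol peaks and 848 and 537 genes. Few peaks for its genes on chromosome X was thus not particular to the single sites. Whether the other values set the single sites apart was not tested. Across the 23 chromosomes the number of sites and the number of protein-coding genes were related with Spearman's rho 0.75 and Pearson's r 0.83, a description over points that share both libraries and differ in length. The gain in width was not limited to a few chromosomes: in each of the 18 chromosomes with at least 10 pairs, more than 50% of the pairs had the wider peak after calcitriol. The counts ran from 19 of 37 on chromosome 19 and 11 of 21 on chromosome 17 to 25 of 30 on chromosome 6, 16 of 20 on chromosome 11 and 9 of 11 on chromosome 4. Median widths of the calcitriol peaks over these chromosomes lay between 1439.5 and 1869 bp. On chromosomes with fewer pairs, the calcitriol peak was wider in 2 of 6 on chromosome 13 and 2 of 4 each on chromosomes 20 and 21. It was wider in 2 of 3 on chromosome 18 and 3 of 4 on chromosome X.

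Most single sites stood apart from each other. The median gap to the nearest other single site was 814.7 kb, and 23 of the 412 (5.58%, interval 3.57 to 8.26%) had another within 10 kb. Counting every calcitriol peak as a neighbour, 82 sites (19.9%, interval 16.2 to 24.1%) had one within 10 kb, with a median gap of 140.2 kb. Among the isolated calcitriol-only peaks, 138 of 984 (14.0%, interval 11.9 to 16.4%) had one within 10 kb, with a median gap of 228.7 kb. Both classes exclude strings on their own list, and the difference was not tested.

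When single sites up to 50 kb apart were joined, 350 stood alone, 42 were in 21 groups of 2, and 6 groups held 3 or 4. The groups of 4 were on chromosome 19 and chromosome 16. On chromosome 19, from 806301 to 862201, the widths before and after calcitriol were 1010 and 1350 bp, 870 and 1609 bp, 1619 and 1730 bp, and 960 and 940 bp, within a stretch that held 16 calcitriol and 13 unstimulated peaks in all. On chromosome 16 the group spanned 88766681 to 88873311 and included the site that met 2 unstimulated peaks. Its other 3 sites measured 860 and 1840 bp, 1450 and 1110 bp, and 1650 and 1989 bp. Neighbouring sites thus did not all change in the same direction.

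The groups of 3 gave the same picture. On chromosome 1, from 156444311 to 156459751, 2 sites were wider after calcitriol (1300 and 2730 bp, 1620 and 2670 bp) and the third was narrower (1830 and 1430 bp). On chromosome 21, from 36206921 to 36263031, the widths were 1810 and 1780 bp, 1770 and 1859 bp, and 870 and 2220 bp, so that 1 site was 1350 bp wider and the other two differed by at most 89 bp. On chromosome 12, from 124865751 to 124943241, they were 2289 and 2599 bp, 1300 and 1869 bp, and 1240 and 840 bp. On chromosome 13, from 50653991 to 50698821, they were 2210 and 2280 bp, 930 and 850 bp, and 1950 and 1560 bp. The first 2 sites of this group lay 200 bp apart, the closest of all single sites, and both kept their width to within 80 bp.

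Close neighbours could also differ sharply. On chromosome 2 the site with nearly unchanged width (200323001 to 200324811, 1740 and 1810 bp) lay 1580 bp from the one with the second largest loss (200326391 to 200327201, 2690 and 810 bp). On chromosome X a site of 860 bp before and 1409 bp after calcitriol (38660141 to 38661550) lay 1821 bp from one of 2039 and 990 bp. On chromosome 8 both neighbours were wider after calcitriol (48647041 to 48648511, 990 and 1470 bp, and 48649471 to 48651710, 1370 and 2239 bp). The same held on chromosome 9 (95877591 to 95879510, 949 and 1919 bp, and 95881481 to 95883320, 1279 and 1839 bp). These pairs were picked for lying within 2000 bp of each other.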

How the data were processed

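VDR ChIP-seq peaks of unstimulated and of calcitriol-treated THP-1 cells were used, 1 library each, grouped by the treatment label. Per the submitters' processing notes, Bowtie (version not stated) aligned the reads, and the build was hg19. Not given in the sources used here are the peak caller, its threshold, its use of the IgG sample and the sequencing depth, and a threshold tied to depth would alter the number and width of peaks. The values deposited by the authors are positions in bp, printed as deposited, and width is end minus start.

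Overlaps, centres and gaps were computed with scipy 1.17.1, pandas 2.3.3 and numpy 2.4.6 under Python 3.11.15, and plotted with matplotlib 3.10.9. Intervals are exact: Clopper-Pearson for shares and order statistics for medians, both at 95%. The overlap functions were tested on simulated data. Protein-coding genes per chromosome (19974) came from a RefSeq table of GRCh38.p14, of which no position was used.

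The single sites were chosen with earlier results of these data known. Sites were named by rule: the 8 widest calcitriol peaks, the 8 largest gains and losses of width, the 8 closest centres, and the 4 sites on each side of the overlap threshold. The sites that were not 1 to 1, the groups of 3 or 4 and the neighbours within 2000 bp were added after their values were seen. No hg19 sequence or annotation was used here, so the planned motif search, gene positions and gene lists were not run.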

Additional observations from a re-analysis of the deposited data

How the results depend on the processing

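No paired analysis was possible because a single library stands for each state, and for the same reason no replicate could be left out. Of 46 alternative values, all of them planned, 10 could not change, because no single site or partner has a gap of 100 bp or less or because the value already rests on 1-to-1 pairs. Of the other 36, 29 stayed within 1.5 times of the count or in the exact interval around the value given above. The median gain in width stayed above 0 in each, although its interval reached below 0 with close centres. With centres within 100 bp required, 109 sites were left, the median gain in width was 80 bp (exact interval -10 to 230 bp), the median centre distance was 40 bp, which the setting itself limits, and 51.1% of isolated calcitriol peaks counted as unshared were wider than the list's median, against 44.1% as reported. With strings kept there were 717 sites, of which 59.7% were wider than that median. Within 50 kb, in place of 10 kb, 35.7% of sites had another calcitriol peak. Requiring reciprocal overlap of 50% kept 345 of them, and removing the out-of-order rows kept all 412 and added 18. The lists hold no scores, so no stricter peak threshold could be applied, and the alternatives for motifs, gene positions and gene lists were not run.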

Other observations

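The row order of the unstimulated list bears on the single sites. In 22 of its 23 chromosomes, 170 rows in all follow the point at which the positions stop increasing. None of the 414 partners of the single sites is in these rows, which allows a share of up to 0.725% by a limit of 3 counts and of 0.887% by the exact interval. That count follows from the next one and is not a separate observation, because each partner is an isolated peak that overlaps a calcitriol peak. Of the 105 out-of-order peaks that belong to no string, 0 overlap a calcitriol peak, which allows up to 2.86% and 3.45% by these limits, whereas 480 of the other 743 isolated unstimulated peaks do (64.6%, exact 95% interval 61.0 to 68.0%). Among pieces of strings the shares were 76.9% in out-of-order rows (50 of 65, interval 64.8 to 86.5%) and 78.9% in the others (202 of 256, interval 73.4 to 83.7%). The calcitriol list has 0 such rows. How the list came to be ordered in this way was not tested. Without these rows the isolated unstimulated-only peaks number 263 and have a median width of 1359 bp, against 1315 bp with them and 1475 bp for the partners of the single sites.

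The 40 other pairs, in which 1 peak met 1 peak but a string was involved, had centres a median of 437.3 bp apart (exact interval 300 to 585 bp), against 224.5 bp (190 to 254.5 bp) for the 407 pairs of single sites. The calcitriol peak was wider in 22 of these 40 (55.0%, interval 38.5 to 70.7%). No test of either difference was made.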
